A study of Mus musculus with 6 samples.

Results

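Ribosomal proteins are the protein components of the cytosolic ribosome, whose small subunit reads the mRNA and whose large subunit forms the peptide bonds. Their genes are among the most highly transcribed housekeeping genes, their mRNAs carry a pyrimidine tract at the start through which mTORC1 and the RNA-binding protein LARP1 adjust translation, and cells make the subunits in matched amounts. In neurons, ribosomes supply protein to the soma, dendrites and synapses. The genes described here were chosen by symbol (Rpl or Rps followed by digits and at most one of the letters a, l and x, plus Rpsa, Rplp0, Rplp1 and Rplp2, without pseudogene symbols), and 81 of the 24411 gene symbols met the rule: 32 for the small subunit and 49 for the large subunit. Of these, 75 passed the filter on low counts.

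Bulk RNA-seq was made from mouse cerebellum at postnatal day 18 (P18), in 3 libraries from mice with a knockout of the remote enhancer of Atoh7 (KO) and 3 libraries from wild-type mice (WT). The labels call the replicates independent, state no strain, sex or litter, and do not say whether a replicate pools animals; p-values measure the spread between these samples. The tissue entry of each label reads retina. The summed level of the Purkinje cell markers Pcp2, Calb1, Car8 and Itpr1 was 2840 to 3664 CPM (counts per 1000000 reads, scaled between libraries) in KO and 2611 to 3162 CPM in WT, while the photoreceptor markers Nrl and Sag were at 0.151 to 0.410 CPM in KO and 0.174 to 0.552 CPM in WT, with Crx at 0 in every library. These markers go with cerebellum and against the tissue entry.

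Reads on genes numbered 32556977 to 34438262 in KO and 16340132 to 28170761 in WT. WT replicate 3 stood apart: Rn45s, the ribosomal RNA precursor, took 63.2% of its gene reads, against 1.28% to 1.67% in KO and 2.95% to 3.04% in the other WT libraries, which left 6015125 reads on other genes. Reads outside genes made up 17.1% to 17.6% of KO and 32.05% to 38.5% of WT libraries, and reads with several places in the genome 8.84% to 9.83% of KO and 6.97% to 7.85% of WT libraries. Xist had 31134 reads in WT replicate 1 and at most 10 in any other library. The part of these differences in the results below was not tested. In bulk tissue, fewer cells of a type and less RNA per cell cannot be told apart.

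The annotated starts of 60 of the 81 genes were in the RefSeq table of GRCm38.p6. Of these, 28 (46.7%) had a run of at least 5 letters, a C followed by C or T only, that began within 5 bases of the annotated start on the coding strand, against 23.6% of the 11610 tested genes with a start in the table. In 33 of the 60 (55.0%), the 300 bases around the start held CCGGAA on either strand, the core letters of binding sites of ETS-family factors, against 27.9% of tested genes. The longer CCGGAAGT, which contains those letters, was in 12 of the 60 (20%) against 7.86%, and TATAAA on either strand in 6 (10%) against 8.99%. Stretches of 4 genes with such a pyrimidine run, picked after the sequences were seen, are shown from 60 bases before the annotated start to 30 bases from it, 5′ to 3′ on the coding strand, with the run in capitals, to show what such a start looks like. The capitals begin at the C counted from within 5 bases of the start, and in Rpl14 the pyrimidines go on for 4 letters upstream of them. Rpl35a is at chr16:33056422-33056511 (plus strand), Rps24 at chr14:24490618-24490707 (plus), Rpl14 at chr9:120571457-120571546 (plus) and Rpl28 at chr7:4792905-4792994 (plus).
Rpl35a: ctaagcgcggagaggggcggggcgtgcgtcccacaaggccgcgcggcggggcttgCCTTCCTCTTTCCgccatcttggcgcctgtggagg
Rps24: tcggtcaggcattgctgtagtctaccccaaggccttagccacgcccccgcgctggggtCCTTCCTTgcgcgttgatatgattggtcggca
Rpl14: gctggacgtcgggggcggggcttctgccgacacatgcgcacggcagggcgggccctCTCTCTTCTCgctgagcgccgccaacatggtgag
Rpl28: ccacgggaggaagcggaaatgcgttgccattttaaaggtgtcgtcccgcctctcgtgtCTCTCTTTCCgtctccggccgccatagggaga

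The same stretch is shown for further genes, all of which passed the test between the genotypes given below. CCGGAA or its reverse complement TTCCGG is in capitals where present. Of the genes shown above, Rpl35a passed that test with all libraries, and Rps24, Rpl14 and Rpl28 did not. Rpl27 is at chr11:101442185-101442274 (plus), Rps19 at chr7:24884532-24884621 (plus), Rps16 at chr7:28350629-28350718 (plus), Rps13 at chr7:116334161-116334250 (minus) and Rpsa at chr9:120127706-120127795 (plus). Where a gene had several starts, the one listed before the others was taken here, and the one with the longest run above. RefSeq starts differ from those of the GENCODE gene positions given below for some genes. A match is a description of letters, and a stretch without capitals lacks only these letters in this window.
Rpl27: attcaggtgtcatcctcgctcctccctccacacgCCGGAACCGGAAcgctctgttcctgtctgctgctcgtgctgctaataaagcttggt
Rps19: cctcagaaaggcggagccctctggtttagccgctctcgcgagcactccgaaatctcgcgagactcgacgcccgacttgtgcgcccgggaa
Rps16: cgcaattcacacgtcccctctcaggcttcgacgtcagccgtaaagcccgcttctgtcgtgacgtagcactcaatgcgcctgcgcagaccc
Rps13: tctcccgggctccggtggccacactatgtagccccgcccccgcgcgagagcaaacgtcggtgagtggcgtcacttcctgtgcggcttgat
Rpsa: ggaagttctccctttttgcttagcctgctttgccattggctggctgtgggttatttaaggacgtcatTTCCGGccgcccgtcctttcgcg

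The summed share of all ribosomal protein mRNAs together overlapped between the genotypes. In reads per 1000000 gene reads other than Rn45s (RPM), the 81 genes together had 7321, 7372 and 7837 RPM in KO replicates 1 to 3, against 7055, 7095 and 7499 RPM in WT replicates 1 to 3. WT replicate 3 lay among the KO libraries, and WT replicates 1 and 2 lay below all 3 of them. Small subunit genes had 2899, 2942 and 3152 RPM in KO and 2884, 2864 and 2895 in WT, so that KO lay just above WT without overlap. Large subunit genes had 4421, 4430 and 4685 in KO and 4171, 4231 and 4604 in WT, with overlap. The ratio of small to large subunit reads was 0.664 ± 0.00846 in KO and 0.666 ± 0.0328 in WT (SD, n = 3 each), and the groups overlapped. The difference of the family's means, 294 RPM, was close to the SD within KO (285) and WT (246), and no test of this sum was made.

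**Figure D1:**
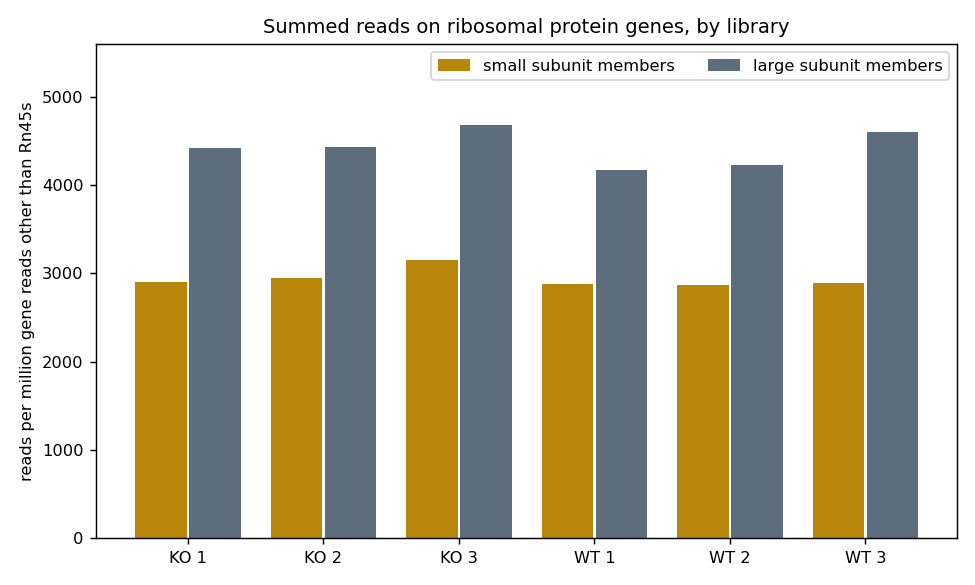
Summed reads on the 32 small subunit and 49 large subunit genes in each library (x axis), in RPM without Rn45s (y axis). Small subunit bars lie between 2864 and 3152, and large subunit bars between 4171 and 4685, with WT replicate 3 at 4604 among the KO libraries.

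Gene by gene, 9 of the 75 tested members were higher in KO, 1 was lower and 65 did not pass the test (edgeR's quasi-likelihood test, Benjamini-Hochberg adjustment over all 15519 tested genes, threshold 0.05). These are 12% higher, 1.33% lower and 13.3% in either direction, beside 6.43%, 10.2% and 16.7% of all tested genes. The median log2 fold change of the members was 0.043, a fold of 1.03, against −0.0055 for all tested genes, and individual values ran from −0.88 to 0.43. Without WT replicate 3, 25 members were higher and 1 was lower, 33.3% and 1.33% (34.7% in either direction), against 10.2% and 13.2% of all tested genes (23.4% in either direction), and the members' median was 0.14 against 0.00063. All 10 genes called with 6 libraries were also called without WT replicate 3. Leaving out the other libraries gave fewer calls: 3, 2 and 1 higher without KO replicates 1, 2 and 3, with backgrounds of 2.27%, 1.88% and 1.56%, and 6 and 3 without WT replicates 1 and 2, with backgrounds of 6.16% and 2.59%.

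**Figure D2:**
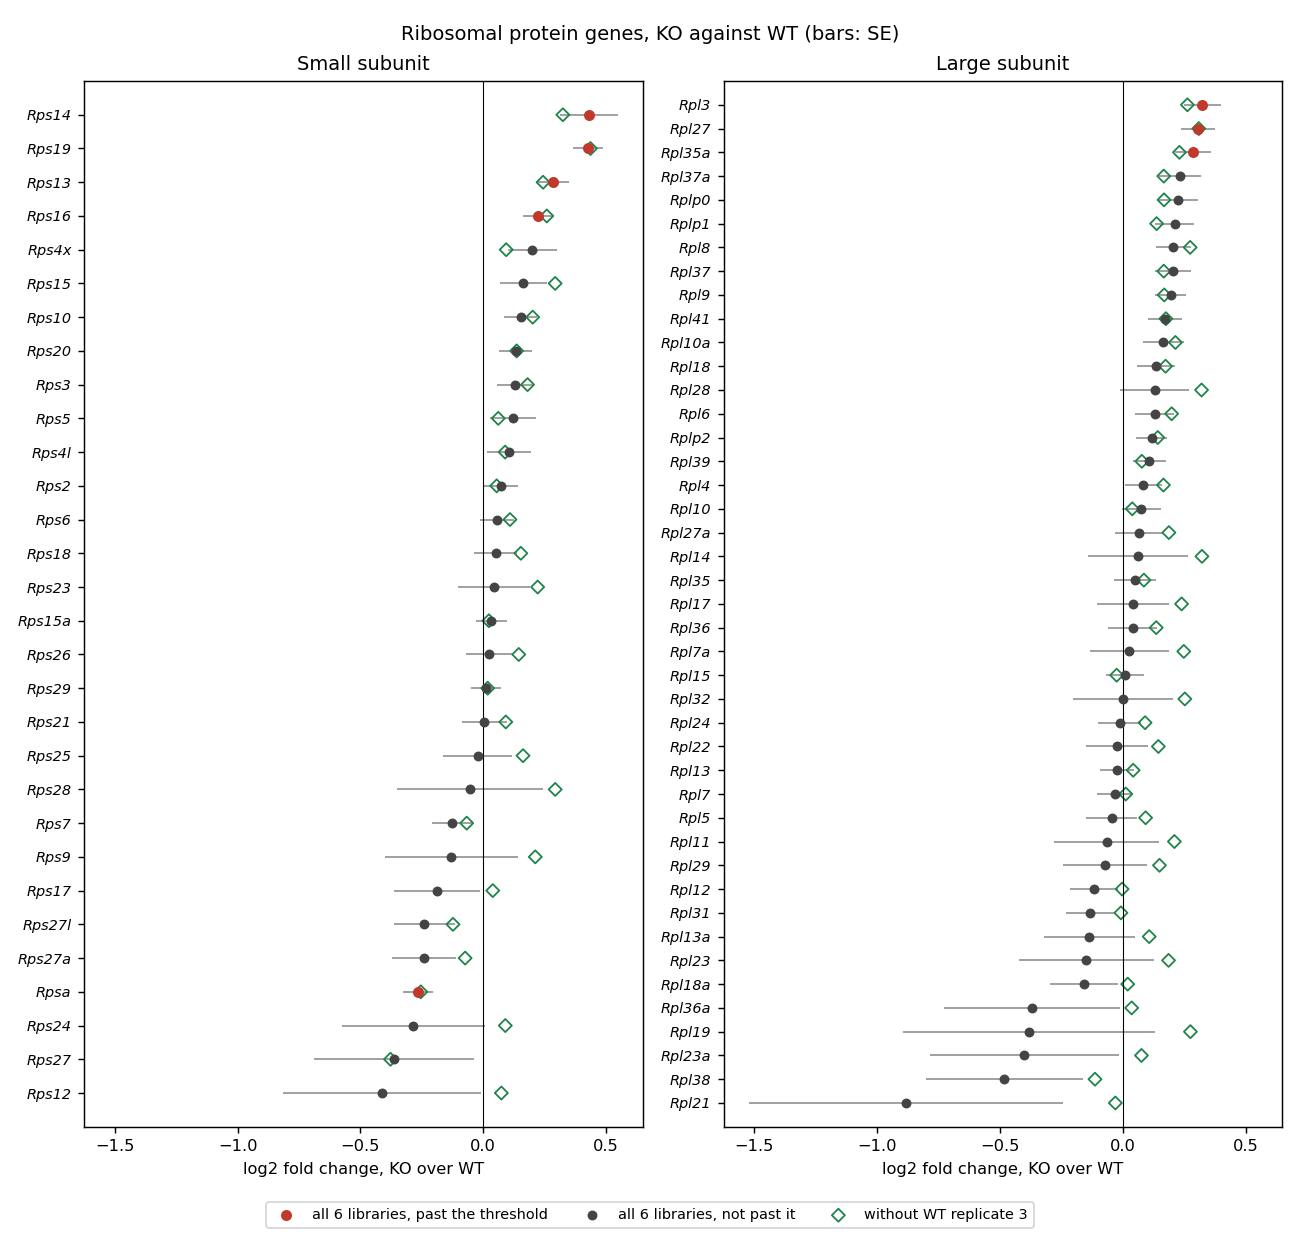
Log2 fold change (KO over WT, x axis) of 73 tested genes (y axis) by subunit. Filled points are values from all 6 libraries with their SE, red where the test was passed, and open diamonds are values without WT replicate 3. The red points have diamonds within their error bars, while Rpl21, Rpl38, Rpl23a, Rpl19 and Rps12 have long bars and diamonds far to the right.

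**Figure D3:**
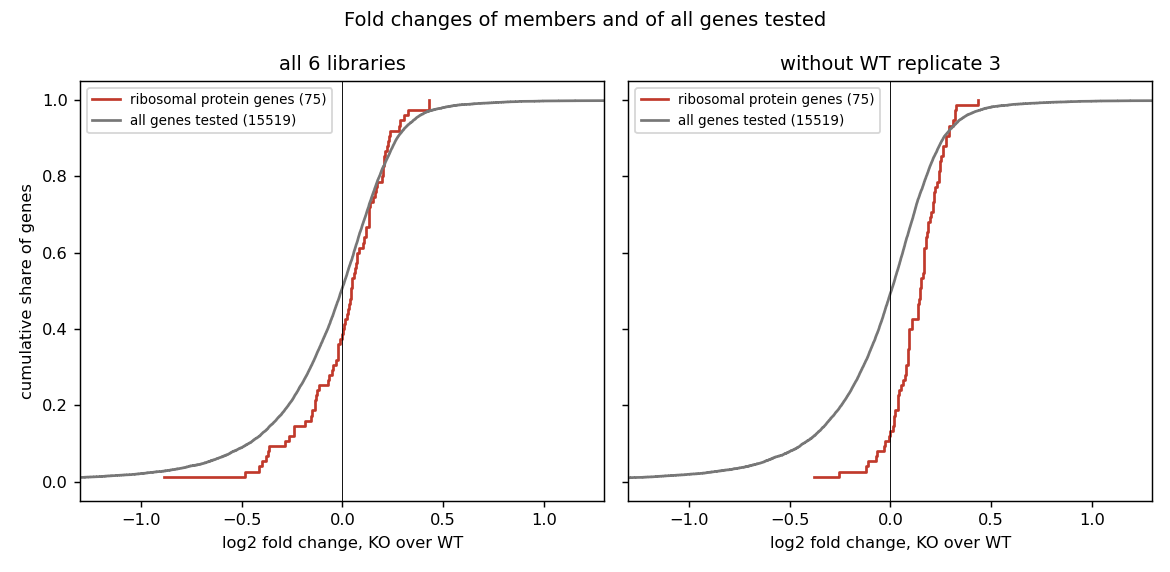
Cumulative share of genes (y axis) against log2 fold change (KO over WT, x axis) for the 75 tested members and all 15519 tested genes. The members' median is 0.043 with all 6 libraries and 0.14 without WT replicate 3, and the curve of all tested genes passes 0 near its middle in both panels.

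The small subunit held 6 of the higher genes. Rps19, a protein needed to process the small subunit's rRNA and the gene most often mutated in Diamond-Blackfan anaemia in humans (chromosome 7, 24884371 to 24889806, GRCm38), had 59.96, 62.1 and 64.5 CPM in KO replicates 1 to 3, against 46.2, 45.9 and 46.7 CPM in WT replicates 1 to 3. All KO libraries lay well above all WT libraries, and each genotype varied little. The fold change was 1.35 (log2 0.43, SE 0.061; adjusted p = 0.00151, edgeR). The call held without any 1 of the 6 libraries, with log2 values from 0.40 to 0.46.

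Rps14 (chromosome 18, 60747098 to 60778546), a small subunit protein whose human gene is lost in a form of myelodysplastic syndrome, had 134, 127 and 157 CPM in KO and 111, 112 and 84.0 CPM in WT. KO replicate 3 was the highest and WT replicate 3 the lowest library. Its log2 fold change was 0.43 (SE 0.12; adjusted p = 0.0345, edgeR) and 0.32 without WT replicate 3, and the call was lost without KO replicate 1 (adjusted p = 0.0734), KO replicate 2 (0.0558), KO replicate 3 (0.131) or WT replicate 2 (0.0541), values from edgeR.

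Rps13 (chromosome 7, 116331505 to 116334195), a small subunit core protein, had 60.6, 62.0 and 62.0 CPM in KO and 51.9, 52.2 and 46.5 CPM in WT (log2 0.28, SE 0.065). Rps16 (chromosome 7, 28350652 to 28353155), near the decoding site, had 71.8, 73.9 and 72.4 CPM in KO and 60.7, 61.1 and 65.7 CPM in WT (log2 0.22, SE 0.062). The genotypes did not overlap in either gene, and the folds were 1.22 for Rps13 and 1.17 for Rps16. Adjusted p was 0.0169 for Rps13 and 0.0337 for Rps16 in edgeR's quasi-likelihood test. Rps16 lost the call without any 1 library other than WT replicate 3, with log2 values from 0.20 to 0.24, and Rps13 without any 1 KO library, from 0.28 to 0.30.

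The large subunit held the other higher genes. Rpl3, a protein next to the peptidyl transferase centre (chromosome 15, 80077791 to 80091868), had 228, 234 and 249 CPM in KO and 200.2, 195.5 and 170.2 CPM in WT, a fold of 1.25 (log2 0.32, SE 0.074). Rpl27 (chromosome 11, 101442298 to 101445529) had 38.4, 38.6 and 42.7 CPM in KO and 31.8, 32.7 and 32.2 CPM in WT, a fold of 1.24 (log2 0.31, SE 0.070). Rpl35a (chromosome 16, 33056453 to 33060189), like Rpl27 a gene mutated in some human cases of Diamond-Blackfan anaemia, had 63.8, 62.2 and 67.4 CPM in KO and 55.0, 55.1 and 47.1 CPM in WT, a fold of 1.22 (log2 0.29, SE 0.074). In each, the lowest KO library lay above the highest WT library, and WT replicate 3 was the lowest of all for Rpl3 and Rpl35a. Adjusted p was 0.0158, 0.0163 and 0.0276 in this order (edgeR's quasi-likelihood test). Rpl3 lost its call without KO replicate 2 (adjusted p = 0.0583) or 3 (0.0887), Rpl27 without KO replicate 3 (0.0845) or WT replicate 2 (0.0539), and Rpl35a without KO replicate 1 (0.0760), 2 (0.0649) or 3 (0.117) or WT replicate 2 (0.0553), all from edgeR.

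Rpsa was the only called member that was lower in KO. It encodes the protein at the small subunit's mRNA exit side that is also known as the laminin receptor (chromosome 9, 120127689 to 120132369), and it had 187, 194 and 206 CPM in KO, against 233, 235 and 238 CPM in WT. The highest KO library lay below the lowest WT library. The log2 fold change was −0.27 (SE 0.060; fold 0.832; adjusted p = 0.0157, edgeR's quasi-likelihood test), and −0.25 without WT replicate 3. The call was lost without KO replicate 1 (adjusted p = 0.0766), KO replicate 2 (0.0737) or WT replicate 2 (0.0591), values from edgeR.

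**Figure D4:**
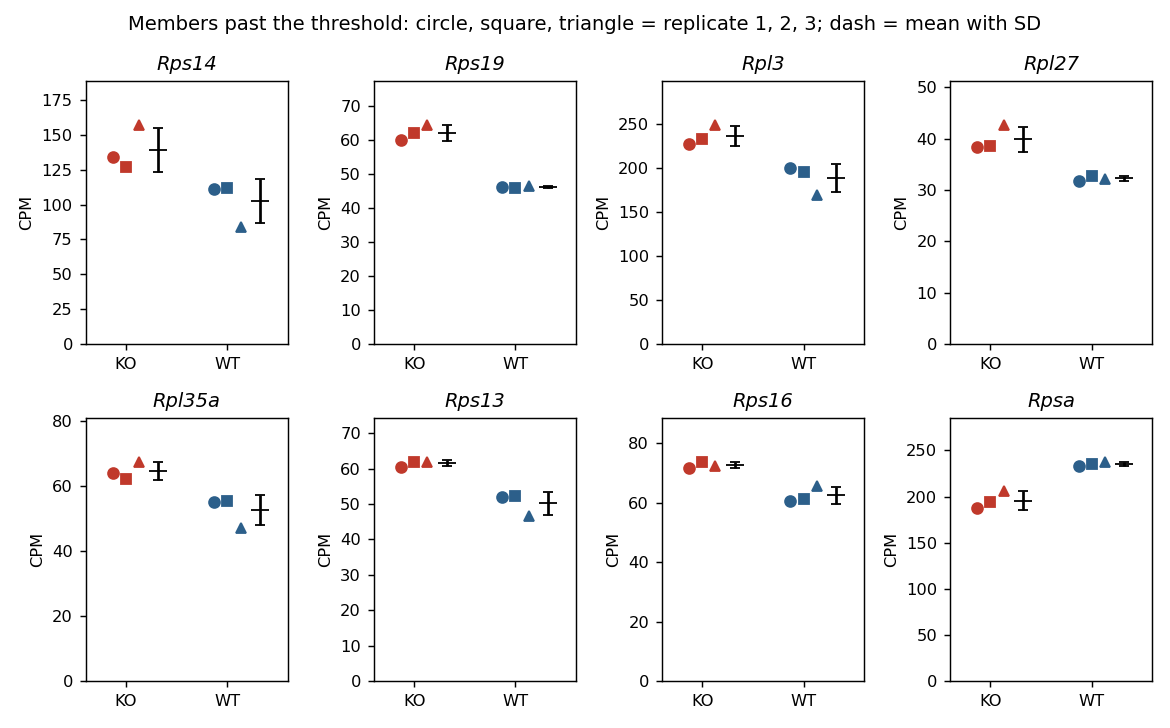
Level in CPM (y axis, from 0) of 8 genes past the threshold in the KO and WT libraries (x axis). Circles, squares and triangles are replicates 1, 2 and 3, and dashes are means with SD (n = 3). In all 8 genes the genotypes do not overlap, with KO above WT in 7 and below it for Rpsa.

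KO lay above WT without overlap in 20 tested members (26.7%) and below it in 1 (1.33%), while this held for 18.9% and 20.5% of all tested genes (28% of members and 39.4% of all tested genes in either direction). Beside the called genes, the 20 were Rps4x, Rps10, Rps20, Rplp0, Rplp1, Rplp2, Rpl8, Rpl9, Rpl37, Rpl37a and Rpl41, with log2 fold changes from 0.12 to 0.23. Set against WT replicates 1 and 2 only, KO lay above in 49 members (65.3%, all tested genes 25.3%) and below in 1 (all tested genes 26.9%, and 52.3% in either direction).

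The proteins of the stalk that recruits elongation factors to the large subunit did not pass the test. Rplp0, its base, had 173, 176 and 201 CPM in KO and 161, 167 and 142 CPM in WT (log2 0.23, SE 0.082; adjusted p = 0.0839, edgeR). Rplp1 had 158, 152 and 147 CPM in KO and 138, 139.9 and 115 CPM in WT (log2 0.21, SE 0.079; adjusted p = 0.0924, edgeR). Rplp2 had 60.9, 58.5 and 58.6 CPM in KO and 55.1, 52.7 and 56.9 CPM in WT (log2 0.12, SE 0.062; adjusted p = 0.217, edgeR). KO lay above WT in all 3 genes without passing.

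WT replicate 3 lay apart from the other WT libraries for many other members. In that library 17 of 75 members exceeded 1.5 times the mean of WT replicates 1 and 2, 19 lay below that mean, and 41 members (54.7%) had their highest level of all 6 libraries there, against 30.1% of all tested genes. The counts of 17 and 19 have no such share of all tested genes beside them. Rpl21, a large subunit protein, had 51.0, 47.4 and 51.6 CPM in KO and 50.4, 52.0 and 190 CPM in WT, so that only WT replicate 3 stood out, at 3.72 times the other WT libraries. Rpl19 had 66.1, 63.5 and 61.5 CPM in KO and 52.5, 53.0 and 156 CPM in WT. Rps12 had 35.0, 33.8 and 33.1 CPM in KO and 31.8, 32.9 and 80.4 CPM in WT. At the other end, WT replicate 3 held 0.753 times the mean of the other WT libraries for Rps14 and 0.750 times for Rps4x.

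The spread over members was largest in that library. Among the 74 members with at least 10 CPM in every library, the SD of the log2 ratio of a library to the other 2 of its genotype was 0.0811, 0.0655 and 0.108 in KO replicates 1 to 3 and 0.299, 0.270 and 0.471 in WT replicates 1 to 3, where the values of WT replicates 1 and 2 include WT replicate 3 in the comparison. Over the 9245 genes with that level the SD was 0.302 in WT replicate 3 and at most 0.117 in KO. Across the 74 members with a principal transcript, the ratio of WT replicate 3 to the other WT libraries was set against transcript properties. Its Spearman correlation was 0.0010 with transcript length and −0.0082 with GC content, as a description over genes that share these libraries. For the log2 fold change (KO over WT), the correlation with GC content was 0.20 with all libraries and 0.31 without WT replicate 3. With transcript length it was 0.019 and −0.0046 in the same order. The 28 tested members with a snoRNA gene inside them on the same strand and the 47 without had medians of 0.21 and 0.20 for this log2 ratio.

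**Figure D5:**
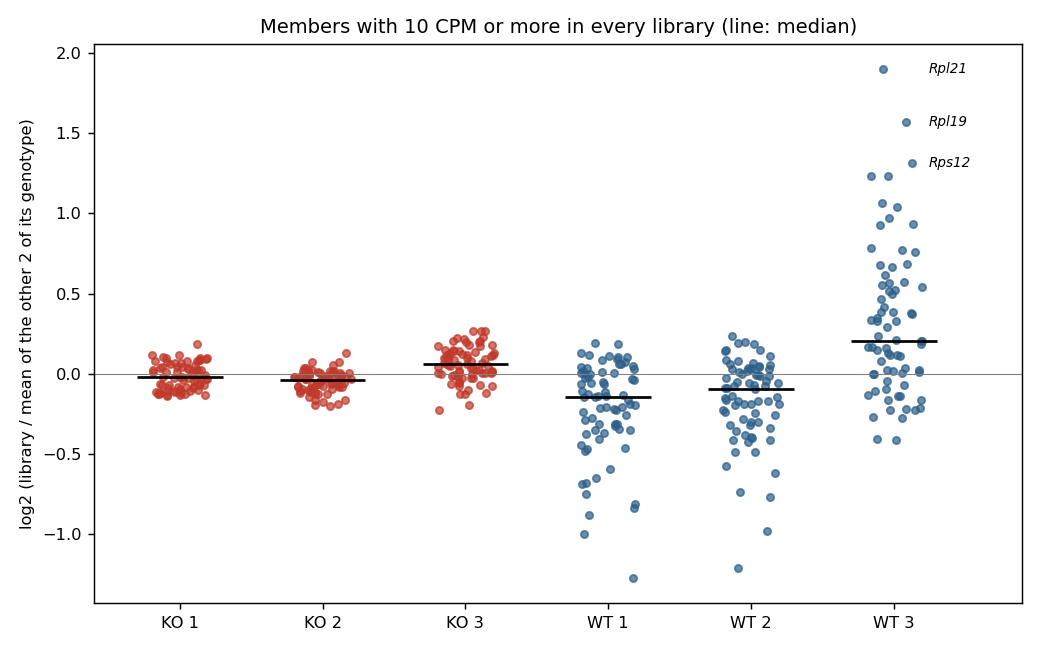
Log2 ratio of each library to the mean of the other 2 of its genotype (y axis) for the 74 members with at least 10 CPM in every library, by library (x axis), with the median as a line. KO libraries spread little, from −0.23 to 0.27, while WT replicate 3 runs from −0.41 to 1.90 (Rpl21).

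Without WT replicate 3, 16 further members were called, all higher in KO, and 12 of them had their highest level in the left-out library. Leaving out a WT library with a high level favours such calls, so the count of 12 follows in part from how the members were picked. Rpl14 had 69.3, 67.7 and 67.4 CPM in KO and 53.6, 55.7 and 92.5 CPM in WT, a log2 fold change of 0.061 with all libraries and 0.32 without WT replicate 3. Rpl28 had 92.8, 85.5 and 85.4 CPM in KO and 70.1, 71.0 and 104 CPM in WT (0.13 and 0.32). Rps15, a protein of the small subunit's head, had 122, 116 and 121 CPM in KO and 99.8, 95.8 and 128 CPM in WT (0.16 and 0.29). In each, KO lay between WT replicates 1 and 2 below it and WT replicate 3 above it. Rpl8, a core protein of the peptidyl transferase region, had 127, 129 and 128 CPM in KO and 105, 108 and 122 CPM in WT (0.21 and 0.27), and its genotypes did not overlap. Rpl19 turned from −0.38 with all libraries to 0.28 without WT replicate 3. For Rpl7a the values were 0.027 and 0.25, for Rpl17 0.041 and 0.24, and for Rpl32 0.00039 and 0.25. Adjusted p for these 8 genes without WT replicate 3 ran from 0.0011 (Rpl14) to 0.0101 (Rpl32) in edgeR's quasi-likelihood test. The others were Rps9, Rps10, Rps28, Rpl4, Rpl6, Rpl9, Rpl11 and Rpl27a.

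Levels between members can be compared only per length, and reads shared with the many processed copies of these genes are dropped as having several places, so such levels are uncertain for each gene. Per kilobase of annotated exons, the highest by the mean of both genotypes were Rplp1 at 306 ± 10.97 CPM per kb in KO and 262 ± 27.9 in WT, Rps15 at 190 ± 4.91 and 171 ± 27.4, Rps29 at 132 ± 4.43 and 131 ± 3.46, Rpl4 at 121 ± 3.52 and 114 ± 11.1, and Rpl41, the shortest ribosomal protein, at 111 ± 8.13 and 98.4 ± 1.82 (KO, then WT; SD, n = 3 each). Rpl4 and Rpl41 in KO differed by less than the sum of their SDs, and the other neighbours among these 5 by more in both genotypes. Rplp0 in KO, at 111 ± 9.28, was level with Rpl41, and Rpl38 in WT, at 107 ± 48.7, lay above it. The lowest tested members by the same mean were Rps27 at 0.506 ± 0.0604 in KO and 0.634 ± 0.212 in WT, then Rps19 and Rps20, Rpl36a and Rps4l at 10.4 to 13.8 in KO and 9.88 to 14.7 in WT, within which Rps27l in KO (13.5) and Rps15a (13.8) and Rpl10a in WT also lay. For Rps19 the annotated exons are longer in sum than the principal transcript, and per kilobase of its principal transcript, a length chosen after the data were seen, it was at 80.4 ± 2.95 in KO and 59.8 ± 0.474 in WT.

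Several core ribosomal proteins had almost no counted reads. Rps27 had 21, 23 and 19 reads in KO and 31, 15 and 4 in WT, Rpl34 had 8, 5 and 2 against 7, 15 and 3, and Rpl30 had 4, 5 and 1 against 3, 10 and 0. Rpl26 was listed at 0 in every library. Counts at or near 0 are uncertain as levels of genes whose proteins are standard parts of the ribosome. Symbols of pseudogenes and retrotransposed copies of the family had at most 62 reads in a library (Rps19-ps3), and Rps27rt and Rpl34-ps1 had 0 in all libraries. Rps19-ps3 itself had 33, 47 and 62 reads in KO and 40, 36 and 7 in WT, beside 2312, 2461 and 2677 reads of Rps19 in KO and 1592, 1484 and 301 in WT.

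Paralogs with an l in their symbol were low. Rps27l, a p53 target in human cells that resembles Rps27, had 10.4, 10.7 and 11.9 CPM in KO and 12.2, 11.8 and 16.6 CPM in WT (log2 −0.24, SE 0.13; adjusted p = 0.216, edgeR). Rps4l had 12.9, 13.8 and 12.2 CPM in KO and 12.3, 12.2 and 11.5 CPM in WT (log2 0.10; adjusted p = 0.454, edgeR). The genotypes overlapped in both. Rpl3l, the striated muscle form of Rpl3, had 8, 14 and 7 reads in KO and 7, 7 and 1 in WT. Rpl39l, known from male germ cells, had 1, 1 and 1 reads in KO and 7, 2 and 0 in WT, and Rpl10l, the autosomal copy of Rpl10 active in spermatogenesis, had 0 in every library, where 3 reads would be 0.0884 to 0.0933 CPM in KO and 0.110 to 0.499 CPM in WT without scaling or Rn45s. With Rpl26, Rpl30 and Rpl34, these were the 6 members below the filter, and no fold change is given for them.

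None of the X-linked members passed. Rps4x had 103, 105 and 111 CPM in KO and 99.8, 99.7 and 74.9 CPM in WT (log2 0.20, SE 0.099; adjusted p = 0.192), Rpl10 84.3, 84.9 and 99.2 in KO and 88.8, 85.8 and 79.2 in WT (0.075; 0.558), and Rpl39, which lines the exit tunnel, 47.1, 45.5 and 49.8 in KO and 45.7, 44.6 and 41.1 in WT (0.11; 0.300), by edgeR. Rpl36a had 18.7, 17.5 and 15.5 CPM in KO and 15.7, 18.01 and 39.5 CPM in WT (−0.37; adjusted p = 0.536, edgeR). WT replicate 1, the library with the Xist reads, had slightly more than WT replicate 2 for Rps4x, Rpl10 and Rpl39 and less for Rpl36a.

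Other parts of the ribosome gave no calls. Of the listed components outside the symbol rule, 0 of 7 tested passed in edgeR, and 1 without WT replicate 3. This was Fau, which encodes a small subunit protein fused to a ubiquitin-like domain, at 67.8, 62.6 and 72.8 CPM in KO and 52.1, 54.2 and 69.1 CPM in WT (log2 0.23 with all libraries and 0.35 without). Gnb2l1, the scaffold protein RACK1 on the small subunit's head, was at 0.25 (SE 0.10; adjusted p = 0.115, edgeR).

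Translation factors and other proteins whose mRNAs are known for a pyrimidine start had 4 of 18 genes higher, 1 lower and 13 not passed, with a median of 0.086. Eef2, the elongation factor that moves the ribosome along the mRNA, had 1146 ± 32.5 CPM in KO and 965 ± 43.3 CPM in WT (SD, n = 3 each; log2 0.25, SE 0.070). Eif3h (0.29), Eif3f (0.26) and Eif4b (0.20), which act in initiation, rose as well, with adjusted p from 0.0153 to 0.0419 over the 4 genes in edgeR's quasi-likelihood test. Hnrnpa1, a splicing factor, fell by 1.67 on the log2 scale, to 1.27 ± 0.248 CPM in KO against 3.89 ± 0.562 CPM in WT. These counts were far below those of the next lowest gene of the list, Eif3k, at 43.7 CPM in KO and 38.9 CPM in WT. Reads with several places in the genome are not counted, so the level of Hnrnpa1 is uncertain. The part of such reads in its difference was not tested. The list had 8 higher without WT replicate 3, and the 4 higher genes each lost their call without KO replicate 2, KO replicate 3 or WT replicate 2, among others.

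Of 15 regulators of these mRNAs and of mTORC1, 2 were higher, 2 lower and 11 did not pass (median 0.064). Larp1, the RNA-binding protein that holds back pyrimidine-start mRNAs, had 170.2, 170.5 and 160.3 CPM in KO and 142, 141.8 and 151 CPM in WT (log2 0.21, SE 0.061). Eif4ebp2, the main neuronal inhibitor of eIF4E, rose by 0.29 (SE 0.087). Tia1, a stress granule protein that can bind such mRNAs, had 33.1, 34.4 and 36.9 CPM in KO and 69.5, 72.0 and 79.7 CPM in WT (−1.07, SE 0.074), and Rps6kb2, a kinase of ribosomal protein S6, had 10.4, 10.9 and 10.5 CPM in KO and 15.8, 17.0 and 18.1 CPM in WT (−0.67, SE 0.087). In Tia1 and Rps6kb2 the genotypes were far apart, and adjusted p over the 4 genes ran from 2.26e-05 (Tia1) to 0.0438 (Eif4ebp2) in edgeR's quasi-likelihood test. The calls of Larp1 and Eif4ebp2 were lost without any 1 KO library or WT replicate 2, and that of Larp1 also without WT replicate 1.

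Genes that make the ribosome were also tested, beside 6.43% higher and 10.2% lower among all tested genes. Of 13 genes of RNA polymerase I transcription, 0 were higher and 2 lower (median −0.15): the initiation factor subunits Taf1d (−0.96, SE 0.14) and Taf1a (−0.49, SE 0.14). Of 34 assembly factors tested, 0 were higher and 3 lower (median −0.082). Dimt1, which methylates the 18S rRNA, had 7.94 ± 0.0341 CPM in KO and 12.2 ± 1.15 CPM in WT (−0.59), and Heatr1 (−0.53) and Utp20 (−0.37), large scaffolds of the small subunit processome, fell too. Without WT replicate 3, 1 assembly factor was higher, Eif6, which keeps the subunits apart, at 29.6, 31.3 and 28.0 CPM in KO and 24.7, 25.7 and 13.6 CPM in WT (log2 0.40 with all libraries and 0.24 without). Of 8 quality control and storage genes tested, 0 were higher and 1 lower, Nemf, which works on stalled large subunits (−0.74, SE 0.12), and 6 were lower without WT replicate 3. Among the 6 lower genes named with all libraries, adjusted p ran from 0.00191 (Taf1d) to 0.0347 (Taf1a) in edgeR's quasi-likelihood test, and Taf1a and Utp20 lost their calls without KO replicate 3 or WT replicate 2, among others. Beside the counts of these lists, 6.43% of all tested genes were higher and 10.2% lower with all libraries, and 10.2% higher and 13.2% lower without WT replicate 3.

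Marker lists of other cell types moved in both directions. Dividing progenitor markers (Mki67, Top2a, Ccnb2, Birc5) summed to 10.2 to 12.2 CPM in KO and 16.9 to 28.4 CPM in WT, with 2 of 4 lower, and meningeal fibroblast markers (Col3a1, Col1a2, Ogn, Dcn) to 139 to 146 CPM in KO and 193 to 269 CPM in WT, with 4 of 4 lower. Microglial markers (P2ry12, Cx3cr1, C1qa, C1qb) summed to 89.5 to 91.6 CPM in KO and 75.5 to 83.2 CPM in WT, with 1 of 4, Cx3cr1, higher. Granule neuron markers (Gabra6, Neurod1, Cbln3, Slc17a7) summed to 736 to 974 CPM in KO and 922 to 1196 CPM in WT, with Gabra6 lower (beside Calb1, higher, among the Purkinje markers), and choroid plexus markers (Ttr, Folr1, Kl, Kcnj13) to 1018 to 1305 CPM in KO and 1022 to 1259 CPM in WT, with 0 of 4 called in edgeR. Without WT replicate 3, Calb1 was still called and Gabra6 was not (log2 −0.68; adjusted p = 0.0795, edgeR). Of the red blood cell markers, Hba-a1, Hba-a2, Hbb-bs and Hbb-bt were listed at 0 in all libraries, and Alas2, the erythroid enzyme of haem synthesis, had 18.02, 27.2 and 31.0 CPM in KO and 15.0, 21.2 and 8.37 CPM in WT (log2 0.67; adjusted p = 0.240, edgeR). The part of cell composition in the ribosomal protein results was not tested.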

How the data were processed

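The deposited files hold raw read counts per gene, 1 file per library, made by the authors with Trimmomatic and STAR on mm10, per the submitters' processing notes; for versions, annotation and strand kit, nothing is given in these sources. The stranded column with nearly all reads of the members was taken (the opposite strand held 0.408% to 0.632%), and STAR's summary rows stayed out of library totals. Members, lists and tests were chosen with earlier results of these data known. KO against WT was tested with quasi-likelihood in edgeR 4.0.16 (R 4.3.3, robust estimation), with TMM scaling after filterByExpr, which left 15519 genes; p-values were adjusted by Benjamini-Hochberg and called under 0.05. SE was derived from the log2 fold change and the F statistic. CPM used TMM-scaled library sizes. The fit was also run on simulated counts that kept the library sizes and gave all libraries of a genotype the same mean level per gene. Such counts hold no library that deviates as WT replicate 3 does, so they cannot show how the fit handles it. DESeq2 1.42.0 and limma-voom (limma 3.58.1) were alternatives. Positions and exon lengths came from GENCODE M21 (GRCm38, the assembly of mm10), which matched all 81 members. Named were members past the threshold, the 8 with the smallest p among those called only without WT replicate 3, the 5 highest and lowest per length, stalk, l-suffix and X-linked members, Rpsa and called list genes; other genes were chosen after their values were seen. Total counts limit precision, and limits from 3 counts cover counting error only. Some genes within these counts are not reported here by name.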

Additional observations from a re-analysis of the deposited data

How the results depend on the processing

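With sample quality weights (limma-voom), 15 members were higher (20%, beside 11.1% of all genes), as were 1725 of all genes and 11 list genes, with 15 list genes lower. With the replicate number as a block, 1 member was higher and 0 lower (1.33% higher, beside 1.62% of all genes). Of all genes, 252 were higher and 821 lower in that fit, and 0 list genes were higher. Same-numbered libraries had correlations of −0.18, −0.14 and −0.10 in their deviations from the genotype mean. With so few libraries per genotype, these values cannot show whether the numbers pair the libraries. The unstranded column, DESeq2 size factors, Rn45s left out, no filter and DESeq2 gave 9 to 11 higher members and 1 lower. These were 11.4% to 14.7% higher and 1.27% to 1.33% lower, beside 5.98% to 7.93% and 8.13% to 11.8% of all genes. Leaving out 1 library gave 1 to 25 higher (1.33% to 33.3%) and 0 to 1 lower members. Of all genes, 245 to 1623 were higher (1.56% to 10.2%) and 796 to 2096 lower (5.08% to 13.2%) in those fits. Among list genes, 0 to 12 were higher and 7 to 15 lower, and the difference of the family sum was 130 to 435 RPM. With Rn45s in the denominator that difference was 1905, since Rn45s fills WT replicate 3. Of the 75 tested members, 20 changed sign without WT replicate 3, 19 of them from below to above 0, and 4 of the 20 were called there. Sign changes were not counted over all tested genes. Among the genes named by rule, signs turned for Rpl19 (0.15 with quality weights) and Rpl32 (−0.029 unstranded, −0.016 in DESeq2), and without 1 library for Rpl7a (−0.077 to 0.25), Rpl10 (−0.0026 to 0.12), Rpl14 (−0.076 to 0.32), Rpl17 (−0.057 to 0.24), Rpl19 (−0.66 to 0.28), Rpl32 (−0.13 to 0.25), Rpl36a (−0.61 to 0.036), Rps27 (−0.66 to 0.086) and Rps29 (−0.010 to 0.038); the cause was not tested. Per principal transcript, a choice made after seeing the data, 4 of the 5 highest members per length were shared and 2 of the 5 lowest. Depth limits mainly WT replicate 3.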
